A study of Mus musculus with 15 samples.

Results

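The genes described here encode the core machinery of histone H3 lysine 9 (H3K9) methylation, the chromatin mark of heterochromatin. They were chosen by name and comprise 10 of the 21662 genes counted: the methyltransferases Setdb1, Suv39h1, Suv39h2, Ehmt1 and Ehmt2, the corepressor Trim28, the heterochromatin protein 1 (HP1) genes Cbx1, Cbx3 and Cbx5, and the chromatin remodeller gene Atrx. All 10 were found in both count tables and all passed the filter on low counts in every comparison. The question addressed was whether their RNA levels differed in mouse embryonic stem cells (ESC) that had lost Hmga1, a chromatin protein that binds AT-rich DNA, or that had regained an Hmga protein.

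H3K9 methylation is written in steps by enzymes with distinct targets. Suv39h1 and Suv39h2 trimethylate H3K9 at pericentric repeats, Ehmt1 (GLP) and Ehmt2 (G9a) form a heterodimer that mono- and dimethylates H3K9 in euchromatin, and Setdb1 trimethylates it at retroviral elements and imprinted regions, where Trim28 (KAP1) and KRAB zinc finger proteins recruit it. The HP1 proteins read the mark through their chromodomain, and ATRX, together with DAXX, deposits histone H3.3 at heterochromatic repeats and telomeres. In ESC, Setdb1 and Trim28 are known for silencing endogenous retroviruses.

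The 15 samples came from 2 experiments on the mouse ESC line 159, of mixed 129Sv-C57Bl/6 background. The KO experiment held 3 WT samples, 2 of an Hmga1 KO line with a frameshift mutation at the splice donor of exon 3, and 2 each of the same KO cells carrying an Hmga1 or an Hmga2 add-back, a biotin-tagged cDNA driven by the ubiquitous CAG promoter. The full-deletion experiment held 3 WT samples and 3 of a line from which the Hmga1 coding sequence had been removed. No agent was given to any group. Each genotype was 1 cell line and its samples were separate cultures harvested on different days, so that the p-values measure the spread between cultures of 1 line, and an effect of genotype cannot be told apart from a property of the clone. The sample letters a, b and c mark, in the KO experiment, a shared library preparation day and flow cell, called batch below, and batch c held WT only.

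Samples of the KO experiment had 13465399 to 34952136 counts, and those of the full-deletion experiment 14832310 to 21708492. WT b of the full-deletion experiment stood apart. It had a normalization factor of 0.752, while WT a and c had 0.992 and 0.986 and the deletion samples 1.10 to 1.12. The scaling thus also lowered the deletion samples relative to WT a and c. In WT b, 8.78% of the counts fell on its 10 highest genes, where that share was 4.67 to 5.38% in the other 5. The main results of that experiment are therefore also given without WT b. Hmga1 fell in the full deletion by 4.86 on the log2 scale (edgeR, adjusted p = 1.06e-05), and Hmga2 rose in the Hmga2 add-back by 3.86 (adjusted p = 5.58e-04). In the frameshift KO, Hmga1 RNA differed from WT by a log2 fold change of -1.29 (edgeR, adjusted p = 0.0534). In the samples labelled Hmga1 add-back it differed from the KO by 0.04 (edgeR, adjusted p = 0.9999). The levels were 184 and 123 CPM (counts scaled to a common library size) there, against 217 and 96.1 in the KO. By Western blot, the study found no Hmga1 protein in the KO, and tagged Hmga1 protein in the add-back at a level comparable to WT. It describes the Hmga1 RNA left in the KO as an isoform without exon 3. The counts used here measure RNA only. The ESC identity was checked on 10 pluripotency genes, whose summed level lay between 4373 and 7013 CPM in all 15 samples with none at 0. Of 10 fibroblast markers, which could report feeder cells, the sum stayed between 4.72 and 18.7 CPM, with 1 to 6 of the 10 at 0. None of the genes of either list that could be tested passed an adjusted p under 0.05 in any comparison of edgeR's test (10 pluripotency genes, and 4 fibroblast markers in the KO experiment, of which 3 could also be tested in the other). Without WT b, 5 of the 10 pluripotency genes were lower and 1 higher in the full deletion, and 1 of the 3 fibroblast markers was higher, where 42.5% of all genes passed.

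The promoters of these genes were inspected because Hmga1 binds AT-rich DNA. From its ChIP-seq in ESC, the study reports that binding follows AT content, and that longer A or T stretches add little beyond it. RefSeq promoter windows (GRCm38.p6) matched 10 of 10 genes with 14 windows in all, each reaching 250 bases upstream of an annotated start. Across these 250 bases the windows had a median AT content of 35.4%, against 47.6% for all 32841 windows of the reference table. At least 1 run of 6 or more bases that were each A or T was present in 8 of the 14 windows, against 66.9% of all windows. The search reads the same on both strands. The sequences of Trim28, Suv39h1 and Atrx are shown because the results below turn on these genes; runs of 6 or more A or T are in capitals. The Trim28 window is chr7:13023902-13024151 on the plus strand, the Suv39h1 window shown chrX:8074761-8075010 and the Atrx window chrX:105929373-105929622, both on the minus strand.
Trim28: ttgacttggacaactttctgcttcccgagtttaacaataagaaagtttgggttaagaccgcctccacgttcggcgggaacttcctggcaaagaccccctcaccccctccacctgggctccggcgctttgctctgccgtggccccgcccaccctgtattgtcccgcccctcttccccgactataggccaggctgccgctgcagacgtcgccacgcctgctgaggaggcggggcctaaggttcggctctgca
Suv39h1: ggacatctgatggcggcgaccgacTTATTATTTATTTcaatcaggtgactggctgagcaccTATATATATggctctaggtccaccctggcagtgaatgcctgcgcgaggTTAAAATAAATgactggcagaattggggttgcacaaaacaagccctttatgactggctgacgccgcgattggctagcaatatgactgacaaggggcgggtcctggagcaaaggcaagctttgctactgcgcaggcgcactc
Atrx: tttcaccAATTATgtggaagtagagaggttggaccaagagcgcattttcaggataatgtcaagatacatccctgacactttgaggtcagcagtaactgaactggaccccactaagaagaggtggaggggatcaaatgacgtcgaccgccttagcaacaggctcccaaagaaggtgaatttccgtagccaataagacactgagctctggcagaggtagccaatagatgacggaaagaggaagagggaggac

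The Trim28 window held no such run and had 38% AT, which lay at the 22.5th percentile of all windows. Suv39h1 had 3 runs in the window shown, the longest of 13 bases, and 48.4% AT. Another Suv39h1 window, not shown, had 1 run and 32.8% AT, at the 12.9th percentile. Atrx, with 1 run, had the highest AT content of the 14 windows at 51.6%, and the second of the Ehmt2 windows the lowest at 16.0%. Over the whole gene, Atrx again was the most AT-rich (61.6%, the 95.8th percentile of 11506 genes tested) and Ehmt2 the least (45.2%, the 7.85th percentile). These are descriptions of the letters in each window, and the RNA counts used here do not measure binding of Hmga1. The study's own ChIP-seq gave lower Hmga values at CpG island promoters than at other promoters.

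**Figure D1:**
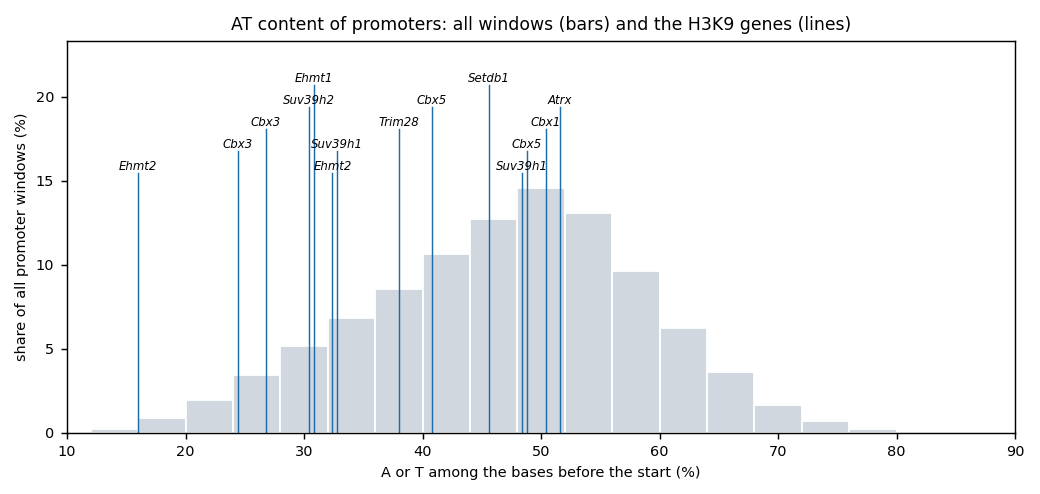
Bars give the share of all promoter windows (%) at each AT content (%) of the 250 bases before the start, and each blue line is 1 of the 14 windows of the H3K9 genes. The lines spread from 16.0% for Ehmt2 to 51.6% for Atrx and most lie left of the median of all windows, 47.6%.

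On the genome build NCBIM37, which the count tables use (mm9), the genes lie on autosomes and the X chromosome. Setdb1 lies at chr3:95127447-95161124 and Trim28 at chr7:13609501-13616384. Both X-linked genes, Suv39h1 (chrX:7638297-7651886) and Atrx (chrX:102992954-103124736), are transcribed from the minus strand. Suv39h2 (chr2:3373087-3392303) and Ehmt1 (chr2:24646289-24775129) share chromosome 2, Ehmt2 lies at chr17:35035414-35050997, and the HP1 genes lie at chr11:96650441-96669954 (Cbx1), chr6:51420359-51433703 (Cbx3) and chr15:103021975-103070247 (Cbx5). No exon of theirs overlapped an exon of another gene on the same strand. Of all 47-base stretches in the exons of Cbx3, 48.1% recurred elsewhere in the genome, in up to 9 copies, against 12.6% for Setdb1, 5.78% for Cbx1 and at most 2.14% for the other 7 genes. Reads with several matches were placed at 1 of them at random, so the Cbx3 level carries that uncertainty.

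All 10 genes were well expressed in every sample, with 284 to 56058 reads each, which gives a 95% counting interval of at most 11.8% to either side of a count. Levels between genes are compared per kilobase of gene length in the count table (CPM per kb), and their order depends on these lengths. For Cbx3, Cbx1 and Cbx5 the lengths were 1803, 3189 and 11081 bases. The GENCODE annotation gave 3229, 4273 and 9006 exonic bases for them, so the order of the HP1 genes carries that uncertainty. In the WT of the KO experiment, Trim28 was the highest with 439 ± 54.2 (SD, n = 3). The HP1 genes followed, with 168 ± 23.5 for Cbx3, 112 ± 20.6 for Cbx1 and 75.9 ± 9.02 for Cbx5, and then Atrx with 59.4 ± 14.7. The methyltransferases were lower: Setdb1 at 38.6 ± 1.96, Ehmt2 at 27.9 ± 4.95, Ehmt1 at 20.8 ± 1.49, Suv39h2 at 20.3 ± 2.57 and Suv39h1 at 8.38 ± 1.52 CPM per kb (SD, n = 3).

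The same order of levels per kb was found in the means of 5 of the 6 groups. It differed in the WT of the full-deletion experiment, where Ehmt2 (36.5 ± 6.93) and Setdb1 (36.0 ± 2.28) changed places within overlapping ranges. Neighbours whose samples overlapped in the KO experiment's WT were Cbx5 with Atrx, and Ehmt1 with Suv39h2. Trim28 at the top and Suv39h1 at the bottom overlapped with no other gene of the set in any group. In the full-deletion experiment Trim28 reached 875 ± 87.4 in WT and 577 ± 23.3 CPM per kb in the deletion (SD, n = 3). Each experiment was scaled on its own, so that the levels of the 2 WT groups stand side by side without a test.

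**Figure D2:**
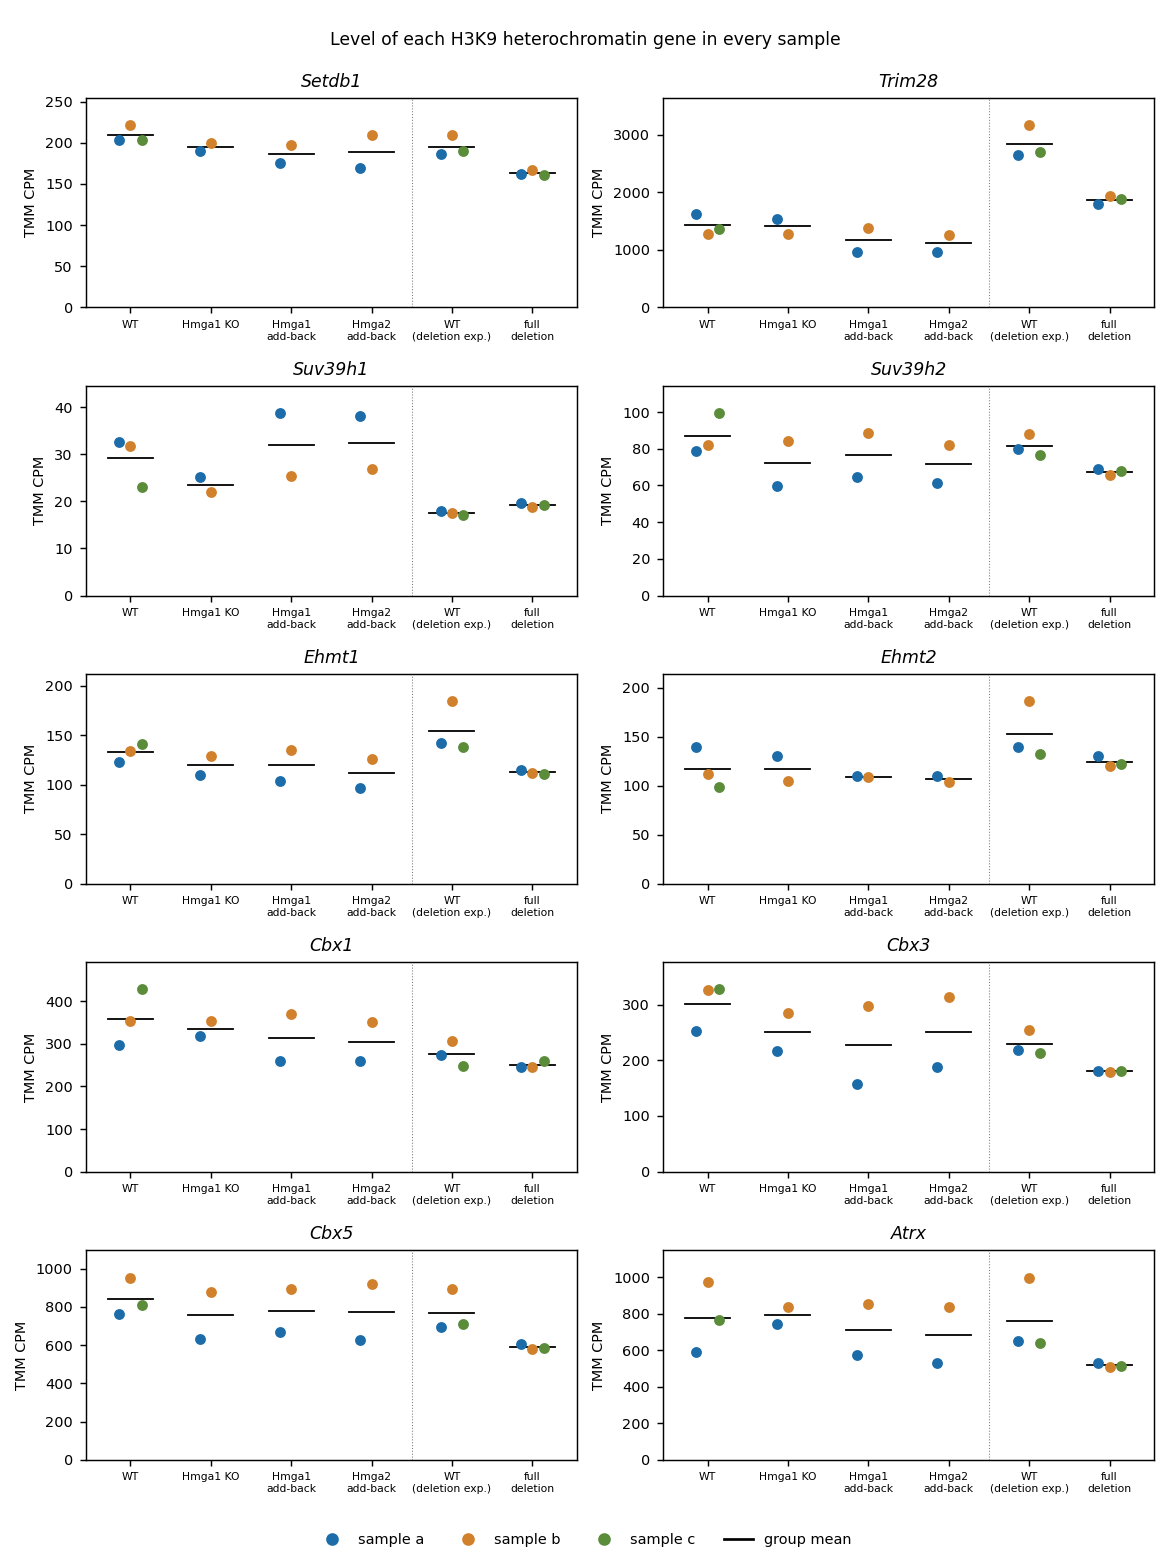
Level of each gene in CPM after TMM scaling (y axis, from 0) in the 6 groups (x axis); points are samples a, b and c, the bar is the group mean, and the dotted line divides the KO experiment (left) from the full-deletion experiment (right), which were scaled apart. In the full-deletion experiment, 8 genes have all deletion samples below all WT samples, while in the KO experiment samples a and b of 1 group often lie further apart than the group means.

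In the full-deletion experiment, most of the H3K9 genes had lower levels in the deletion than in WT, and Trim28 was the only one past a threshold. No gene met the study's own call of an adjusted p under 0.01 with at least a 2-fold change (edgeR's quasi-likelihood test, Benjamini-Hochberg adjusted), which 0.0687% of the 13098 genes tested met. At an adjusted p under 0.05 with any fold, 1 of the 10 was called, Trim28, and it was lower. Of all genes, 8.25% were called by this rule and 3.77% were called lower. At an unadjusted p under 0.05, 7 of the 10 were lower and none was higher, against 18.6% of all genes lower and 18.4% higher. In either direction 4843 of the 13098 genes passed. DESeq2 and limma also gave 0 of the 10 by the study's call.

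Trim28, the corepressor that brings Setdb1 to its targets, had 2650, 3164 and 2701 CPM in WT a, b and c, while the deletion samples had 1792, 1942 and 1876 CPM. The groups did not overlap. Trim28 fell by 0.60 ± 0.14 on the log2 scale (SE, 95% interval -0.94 to -0.27), a fold of 0.659, with an adjusted p of 0.0468 in edgeR's test. The call lay close to its threshold: over the alternatives run, the adjusted p ranged from 1.74e-07 without WT b to 0.199 without full deletion c.

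Among the methyltransferases, Setdb1 had 186, 209 and 190 CPM in WT and 162, 167 and 161 CPM in the deletion, a log2 fold change of -0.25 ± 0.10 (SE, edgeR, adjusted p = 0.109). All deletion samples lay below all WT samples. Ehmt1, a subunit of the H3K9 dimethyltransferase, had 142, 184 and 138 CPM in WT and 114, 112 and 111 CPM in the deletion (-0.46 ± 0.13, SE, edgeR, adjusted p = 0.0639). Its partner Ehmt2 had 140, 186 and 133 CPM against 131, 120 and 122 CPM (-0.30 ± 0.15, SE, edgeR, adjusted p = 0.171), and without WT b the difference was -0.14. Neither pair of groups overlapped, although for Ehmt2 the nearest samples of the groups were 131 and 133 CPM.

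The Suv39h paralogs, both writers of pericentric H3K9 trimethylation, lay on opposite sides of 0. Suv39h2 had 80.0, 88.1 and 76.5 CPM in WT and 68.9, 65.6 and 68.1 CPM in the deletion, a log2 fold change of -0.27 ± 0.10 (SE, edgeR, adjusted p = 0.0913). Suv39h1 had 18.0, 17.4 and 17.2 CPM in WT and 19.6, 18.7 and 19.2 CPM in the deletion (0.13 ± 0.10, SE, edgeR, adjusted p = 0.357). It was the only gene of the set with all deletion samples above all WT samples.

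Of the HP1 genes, Cbx3 (HP1 gamma) had 219, 255 and 213 CPM in WT and 181, 180 and 180 CPM in the deletion, with a log2 fold change of -0.34 ± 0.11 (SE, edgeR, adjusted p = 0.0746). Cbx5 (HP1 alpha) had 695, 897 and 713 CPM against 608, 581 and 585 CPM (-0.38 ± 0.14, SE, edgeR, adjusted p = 0.0968). Both had WT and deletion samples apart. Cbx1 (HP1 beta), with 272, 307 and 248 CPM against 244, 245 and 259 CPM, was the 1 gene whose groups overlapped (-0.14 ± 0.12, SE, edgeR, adjusted p = 0.381), and without WT b its value was -0.06.

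Atrx had 648, 998 and 640 CPM in WT and 530, 510 and 516 CPM in the deletion. Its log2 fold change of -0.56 ± 0.19 (SE, 95% interval -0.998 to -0.112) was the second in size after Trim28, with an adjusted p of 0.0868 in edgeR's test. WT b, at 998 CPM, was far above the other WT samples, and without it the value was -0.31.

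After TMM scaling, all deletion samples lay below all WT samples for 8 of the 10 genes, where 24.6% of all genes did so. All deletion samples lay above all WT samples for 1 of the 10, where 26.7% of all genes did. This pattern, here and for each gene above, depended on the scaling. By counts over the sample totals alone, the groups overlapped also for Setdb1, Suv39h2, Ehmt2, Cbx3 and Cbx5. They stayed apart for Trim28, Ehmt1, Atrx and Suv39h1, and the share of all genes was not computed. The median log2 fold change of the 10 was -0.32, against 0.04 over all genes tested. Scaling by summed counts alone moved the median of all genes to 0.32 and that of the 10 to -0.02, and then 5 of the 10 lay above 0. Relative to all genes, the median of the 10 was lower by a log2 difference of -0.37 with TMM scaling and of -0.34 with summed counts. No count or median here is a test of the set.

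WT b bore on these results more than any other sample. Without it, 7 of the 10 genes were lower at an adjusted p under 0.05 (Setdb1, Trim28, Suv39h2, Ehmt1, Cbx3, Cbx5 and Atrx) and Suv39h1, Ehmt2 and Cbx1 were not, but of all 13163 genes tested 22% were then called lower and 20.5% higher. DESeq2 on all 6 samples called the same 7 genes lower, with 14% of all genes called lower. The log2 fold change of Trim28 without WT b was -0.52 ± 0.05 (SE), that of Ehmt1 -0.32 ± 0.06, of Atrx -0.31 ± 0.05 and of Cbx5 -0.25 ± 0.05 (SE), with 2 WT and 3 deletion samples. The values of Setdb1, Suv39h2 and Cbx3 were then -0.20, -0.21 and -0.26, and the median of the 10 was -0.23. With any other sample left out, 0 of the 10 passed this threshold in edgeR's test. Of all genes, 1233 (9.40%) passed without WT a, but 4 passed without WT c and 3 without any 1 of the deletion samples. The fibroblast markers summed to 4.72 to 7.69 CPM in these WT samples and to 9.74 to 10.5 CPM in the deletion, and the pluripotency markers to 4744 to 7013 against 4373 to 4435 CPM; their part in the results was not tested. In bulk RNA, fewer cells of a type and less RNA per cell cannot be told apart.

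**Figure D3:**
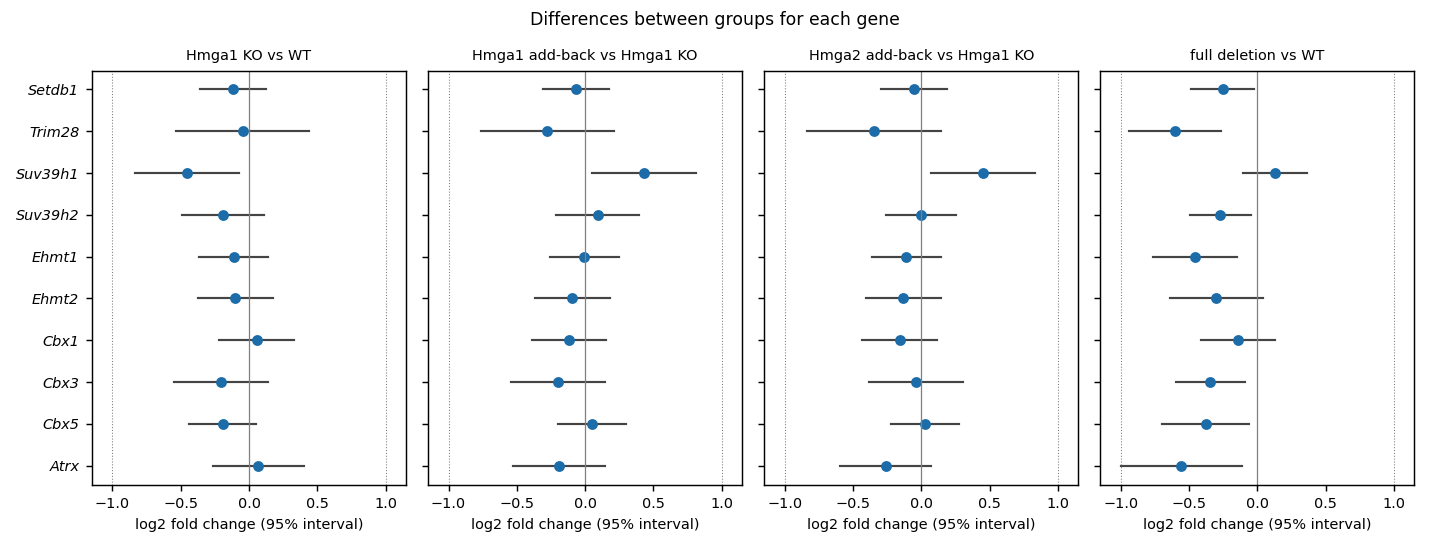
Log2 fold change of each gene (points) with its 95% interval (lines) from edgeR, in 4 comparisons; dotted lines mark a 2-fold change in either direction. In the full deletion 9 of the 10 points lie below 0, with Trim28 the lowest at -0.60. In the KO experiment Suv39h1 lies lowest in the KO (-0.46) and highest in the add-back comparisons (0.43 and 0.45). The comparisons of the KO experiment all use the same KO samples and are not independent.

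In the KO experiment, no H3K9 gene was called between the frameshift KO and WT, and Suv39h1 had the largest difference. By the study's call 0 of the 10 passed in edgeR's test, where 0.0216% of the 13912 genes tested did, and at an adjusted p under 0.05 with any fold 0 of the 10 passed, where 0.0647% of all genes did. At an unadjusted p under 0.05 there was 1 gene, Suv39h1, among 1747 genes (12.6%) in all, and DESeq2 and limma gave 0 of the 10 by either call. The median of the 10 was -0.11, against -0.01 for all genes tested, and 8 of the 10 lay below 0. It was -0.02 without WT a, with 6 of the 10 below 0, and -0.23 without WT b, with 9 below 0. Without WT b 736 genes (5.25%) passed an adjusted p under 0.05, and still 0 of the 10.

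Suv39h1 had 32.6, 31.7 and 23.0 CPM in WT a, b and c, 25.1 and 22.0 CPM in KO a and b, 38.7 and 25.4 CPM in the samples labelled Hmga1 add-back and 38 and 26.8 CPM in the Hmga2 add-back. WT c lay between the 2 KO samples, so the groups overlapped. In the fit with a batch term, Suv39h1 differed in the KO by -0.46 ± 0.17 (SE, 95% interval -0.84 to -0.07), with an unadjusted p of 0.025 and an adjusted p of 0.346 in edgeR's test. Within batches, the log2 ratio of KO to WT was -0.38 in batch a and -0.53 in batch b. With 1 sample left out the fitted difference ranged from -0.65 without WT a to -0.26 without WT b.

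Setdb1 had 203, 221 and 203 CPM in WT and 190 and 200 CPM in the KO, a log2 fold change of -0.12. It was the 1 gene of the 10 with all KO samples below all WT samples, where 10.5% of all genes had this pattern.

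The other genes differed less than Suv39h1. Cbx3 had 253, 326 and 327 CPM in WT and 217 and 286 CPM in the KO (-0.21 ± 0.15, SE, edgeR, adjusted p = 0.597), and Cbx5 had 762, 954 and 808 CPM against 634 and 878 CPM (-0.19 ± 0.11, SE, edgeR, adjusted p = 0.499). Both pairs of groups overlapped. Trim28 had 1621, 1283 and 1369 CPM in WT and 1535 and 1278 CPM in the KO, a log2 fold change of -0.05 with a 95% interval from -0.53 to 0.44. Atrx had 591, 975 and 765 CPM in WT and 746 and 839 CPM in the KO (0.07 ± 0.15, SE), and its log2 ratio of KO to WT was 0.34 within batch a and -0.22 within batch b. The remaining 4 genes lay between -0.19 (Suv39h2) and 0.06 (Cbx1), with Ehmt1 and Ehmt2 at -0.11 and -0.10.

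No H3K9 gene was called between the KO and the samples labelled Hmga1 add-back, or between the KO and the Hmga2 add-back. Hmga1 RNA was not higher in the Hmga1 add-back than in the KO (a log2 difference of 0.04), although the study detected the tagged protein there. In the samples labelled Hmga1 add-back against the KO, 0 of the 10 passed either threshold in edgeR's test, as did 0% of all genes by the study's call and 0% at an adjusted p under 0.05. In the Hmga2 add-back 0 of the 10 passed, against 0.00719% of all genes by the study's call and 0.0144% at an adjusted p under 0.05. At an unadjusted p under 0.05, Suv39h1 was the 1 gene in each, of 390 (2.80%) and 708 (5.09%) genes in all, and DESeq2 and limma also gave 0 of the 10. The 2 comparisons share their KO samples with each other and with the comparison of KO to WT. Low Suv39h1 values in the KO samples alone would give a difference below 0 there and above 0 here.

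Suv39h1 was higher than in the KO by a log2 fold change of 0.43 ± 0.17 in the samples labelled Hmga1 add-back (SE, 95% interval 0.05 to 0.81, edgeR, unadjusted p = 0.0311, adjusted p = 0.9999). In the Hmga2 add-back the difference was 0.45 ± 0.17 (SE, 95% interval 0.07 to 0.83, edgeR, unadjusted p = 0.0259, adjusted p = 0.877). Within batches, the log2 ratio to the KO was 0.63 in batch a and 0.21 in batch b for the Hmga1 add-back, and 0.60 and 0.28 for the Hmga2 add-back. All 4 ratios were above 0, and in each add-back the ratio was larger in batch a than in batch b. Without sample a of the group labelled Hmga1 add-back the fitted difference was 0.22 and without its sample b 0.60, and leaving out 1 sample gave 0.34 to 0.56 in the Hmga2 add-back. Suv39h1 was the 1 gene of the 10 with both add-back samples above both KO samples. This pattern was found in 8% of all genes for the Hmga1 add-back and in 10.5% for the Hmga2 add-back. For the Hmga1 add-back the nearest samples were its sample b at 25.4 CPM and KO a at 25.1 CPM. The 95% counting interval of that sample b was 10.8% to either side.

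Trim28 had 965 and 1375 CPM in samples a and b of the Hmga1 add-back and 965 and 1263 CPM in those of the Hmga2 add-back. In the Hmga2 add-back both samples lay below both KO samples, which held for Trim28 alone of the 10 and for 9.87% of all genes. The nearest samples were close, at 1263 CPM in Hmga2 add-back b and 1278 CPM in KO b. The value in batch a was thus lower in both add-backs than in any WT or KO sample, while in batch b it was close to the KO sample of that batch. The fitted log2 fold change against the KO was -0.28 (95% interval -0.77 to 0.21) in the samples labelled Hmga1 add-back and -0.35 (-0.83 to 0.14) in the Hmga2 add-back. Split by batch, the log2 ratios were -0.67 in batch a for both add-backs and 0.11 and -0.02 in batch b.

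Atrx had 573 and 851 CPM in the samples labelled Hmga1 add-back and 528 and 837 CPM in the Hmga2 add-back, with fitted differences from the KO of -0.19 ± 0.15 and -0.26 ± 0.15 (SE). Its difference also lay in batch a, with a log2 ratio of -0.38 and -0.50, against 0.02 and -0.0028 in batch b. Cbx3 followed with 158 and 298 CPM in the Hmga1 add-back (-0.20 ± 0.15, SE) and 188 and 314 CPM in the Hmga2 add-back (-0.04 ± 0.15, SE). The other 6 genes lay between -0.12 and 0.09 in the samples labelled Hmga1 add-back and between -0.16 and 0.03 in the Hmga2 add-back.

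The sign of the difference was the same in batches a and b for 8 of the 10 genes in the KO, where it was for 62.1% of all genes. It was the same for 4 of the 10 in the Hmga1 add-back, against 46.0% of all genes, and for 6 of the 10 in the Hmga2 add-back, against 53.6%. Median distances between the batches' log2 ratios were 0.10 (KO), 0.33 (Hmga1 add-back) and 0.26 (Hmga2 add-back) for the 10 genes, and 0.23, 0.26 and 0.25 for all genes.

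**Figure D4:**
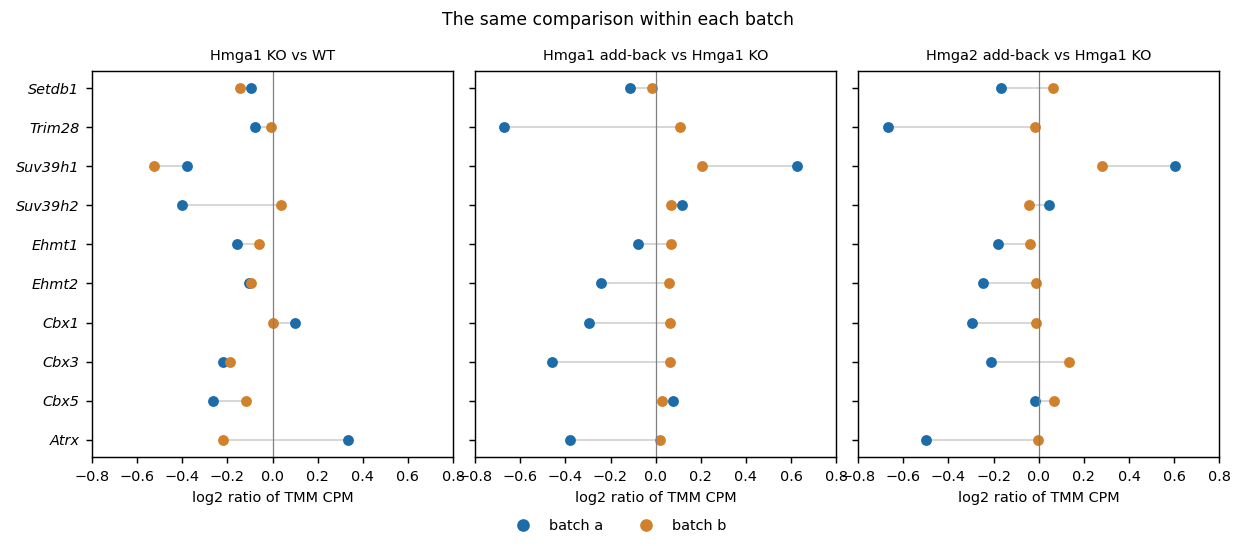
Log2 ratio of TMM-scaled CPM between the 2 groups named above each panel, computed within batch a (blue) and within batch b (orange) for each gene; grey lines join the batches. Suv39h1 lies on 1 side of 0 in both batches of every panel, while Trim28, Atrx and Cbx3 in the Hmga1 add-back have their differences in batch a. All panels use the same KO samples.

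The difference between the 2 kinds of Hmga1 loss was tested in a joint fit of all 15 samples. None of the 10 passed: by the study's call 0.0951% of the 13671 genes tested did, and at an adjusted p under 0.05 with any fold 0.307% did. Without WT b of the full-deletion experiment 667 of 13707 genes (4.87%) passed the second rule, and still 0 of the 10. Suv39h1 and Atrx had an unadjusted p under 0.05, among 2512 genes (18.4%). For Suv39h1, lower in the KO and higher in the deletion, the KO effect minus the deletion effect was -0.57 ± 0.19 (SE, 95% interval -0.99 to -0.16, edgeR, unadjusted p = 0.0112, adjusted p = 0.223). For Atrx it was 0.64 ± 0.28 (SE, edgeR, adjusted p = 0.267), and for Trim28 0.57 ± 0.28 (SE, 95% interval -0.04 to 1.18, edgeR, adjusted p = 0.294). Without WT b the differences were -0.54, 0.42 and 0.50, with adjusted p of 0.112, 0.12 and 0.213 in edgeR's test. A lower Trim28 in the full deletion and its absence among the calls of the KO are thus not shown to differ. With all 15 samples, the other genes had 0.15 (Setdb1), 0.09 (Suv39h2), 0.36 (Ehmt1), 0.22 (Ehmt2), 0.21 (Cbx1), 0.15 (Cbx3) and 0.20 (Cbx5).

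The balance between paralogs does not depend on how libraries are scaled, since it is a share of counts per kb within each sample. The size of a share does depend on the gene lengths used. Suv39h1 made up 21.7, 19.6 and 21.7% of the 2 Suv39h genes in WT a, b and c of the full-deletion experiment and 25.9, 26.1 and 25.8% in the deletion. The groups did not overlap, and the mean share was higher by 4.94 percentage points. Ehmt1 made up 39.4 to 40.6% of the Ehmt genes in WT and 36.5 to 38.1% in the deletion, again without overlap.

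Among the HP1 genes, Cbx1 made up 29.8 to 31.7% in WT and 33.1 to 34.7% in the deletion, and Cbx3 44.4 to 45.4% and 42.7 to 43.6%. Cbx5 overlapped, with 23.3 to 25.4% and 22.6 to 23.7%. With 3 samples against 3, an exact two-sided permutation test gives any non-overlapping share a p of 0.1, the lowest it can give. After Benjamini-Hochberg adjustment over 7 shares the p in this permutation test was 0.117. Shares within a family depend on each other, so the 7 are not independent, and the test adds nothing to the lack of overlap. In the KO experiment the Suv39h and Ehmt shares moved with the batch, while the HP1 shares overlapped between batches a and b. Suv39h1 made up 33.8 to 43.3% in the 4 samples of batch a and 24.3 to 32.2% in those of batch b. KO samples had 34.1 and 24.3%, against 33.8, 32.2 and 22.2% in WT a, b and c.

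**Figure D5:**
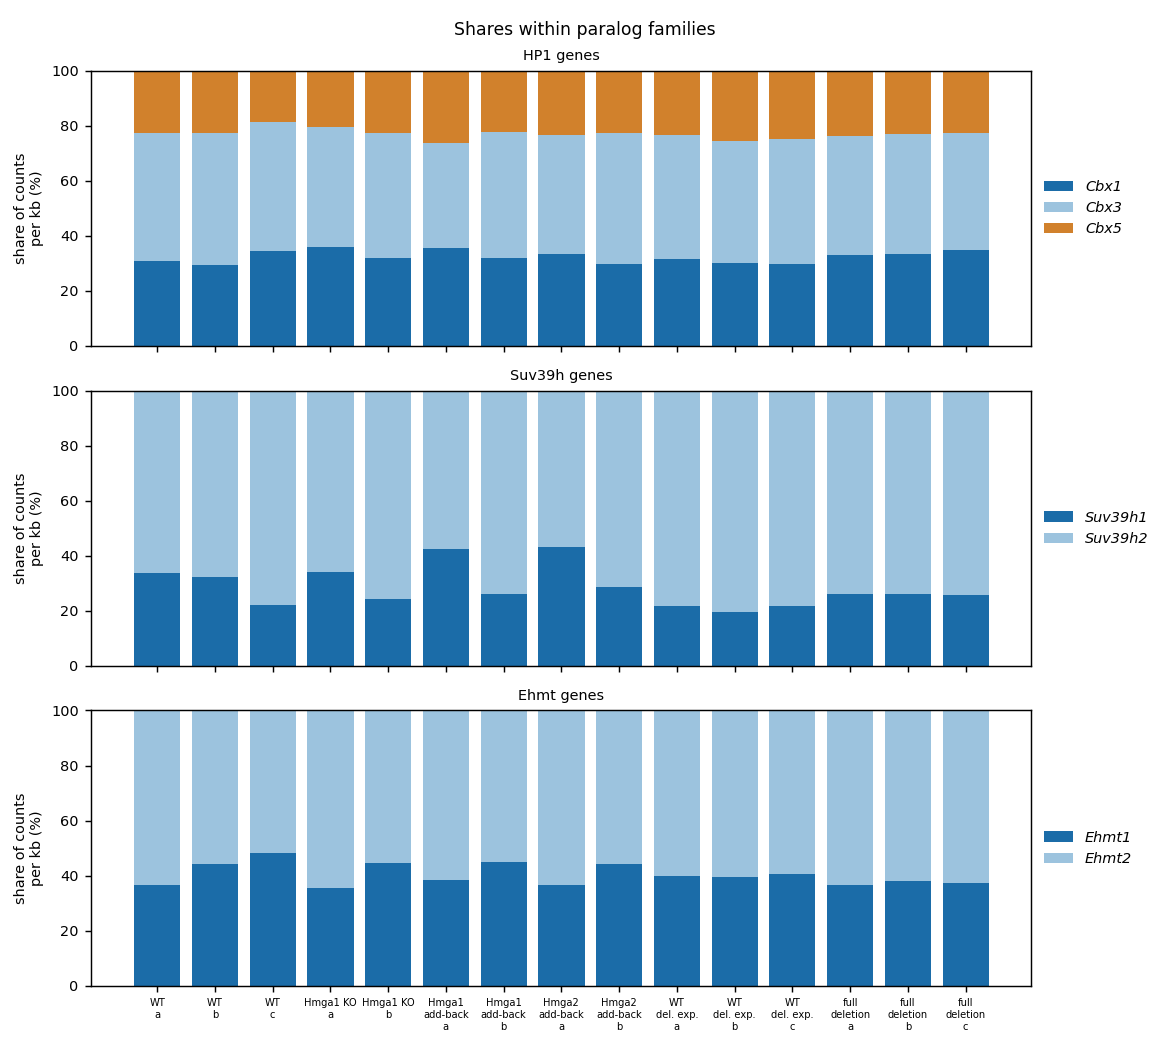
Stacked bars give, for each of the 15 samples (x axis), the share of counts per kb (%) of each gene within its paralog family: HP1, Suv39h and Ehmt. The Suv39h1 share is 25.8 to 26.1% in the full deletion and 19.6 to 21.7% in its WT, and in the KO experiment samples a and b of 1 group lie apart, as at 42.4 and 26.1% in the Hmga1 add-back.

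Genes that work with this machinery were taken as lists. The list called partners of H3K9 methyltransferases also held methyltransferases themselves, such as Prdm16. In the KO and in both add-backs, none of the genes tested passed an adjusted p under 0.05: 0 of 11 partners of H3K9 methyltransferases, 0 of 4 genes of the HUSH silencing complex, 0 of 10 H3K9 demethylases, 0 of 9 histone H3.3 genes and chaperones, and 0 of 10 genes that maintain heterochromatin and DNA methylation. In the full deletion, 1 of 10 partners tested was higher and 1 lower, 1 of 4 HUSH genes, 1 of 10 demethylases and 1 of 10 maintenance genes were lower, and 0 of 9 H3.3 genes and chaperones passed. By the same rule 4.47% of all genes were higher and 3.77% lower. Without WT b, when 20.5% of all genes were higher and 22% lower, 4 partners, 3 HUSH genes, 3 demethylases, 5 maintenance genes and 5 H3.3 genes and chaperones were lower, and 1 partner and 2 maintenance genes were higher. The medians in the full deletion were -0.31, -0.42, -0.06, -0.24 and -0.16 for partners, HUSH, demethylases, maintenance genes and H3.3 genes, beside 0.04 for all genes.

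Zfp57, a KRAB zinc finger protein that guides Trim28 to imprinted regions, fell in the full deletion by 0.44 on the log2 scale (edgeR, adjusted p = 0.0444). Prdm16, an H3K9 monomethyltransferase, rose by 0.77 (edgeR, adjusted p = 0.0404). Fam208a, the gene of the HUSH subunit TASOR, fell by 0.45 (edgeR, adjusted p = 0.0438), and Hells, a remodeller needed for DNA methylation of repeats, fell by 0.61 (edgeR, adjusted p = 0.0341). Jmjd1c, a member of the H3K9 demethylase family, fell by 0.82 (edgeR, adjusted p = 0.0309). These 5 calls lay close to the threshold. All 5 held without WT b, and Prdm16, Hells and Jmjd1c also held without WT a, but Zfp57 (adjusted p = 0.0628, edgeR) and Fam208a (adjusted p = 0.054, edgeR) did not. None of the 5 held without WT c or without any 1 deletion sample, where their adjusted p reached 0.197 in edgeR's test with the sign unchanged.

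Germline genes, known targets of silencing by these enzymes in ESC, showed no common direction in the full deletion. Of the 12 tested, 1 was higher, Mael, by a log2 fold change of 1.05 (edgeR, adjusted p = 0.0248). The 3 that were lower included Sycp1, a synaptonemal complex gene, at -1.52 (edgeR, adjusted p = 0.0293), and Ddx4, a germ cell RNA helicase gene, at -0.93 (edgeR, adjusted p = 0.0413). The 4 calls among the 12, beside 8.25% of all genes called, held without WT a and without WT b, and none held without WT c or without any 1 deletion sample. Without WT b 4 of the 12 were higher and 4 lower, beside 20.5% and 22% of all genes. In the KO none of 12 passed, with a median of 0.54 and a range of -0.27 to 1.31, and none of 12 passed in either add-back. The KO and deletion effects differed for 1 germline gene, Hormad1, by 1.98 (edgeR, adjusted p = 0.0315). With 1 sample left out this call held in 4 of 11 fits, and the adjusted p ranged from 0.00573 without WT b of the full-deletion experiment to 0.325 without KO a in edgeR's test. The differentiation markers summed to 48.8 to 85.0 CPM in the WT of the KO experiment and to 28.7 to 29.0 CPM in the KO. They summed to 31.6 to 36.1 CPM in the Hmga1 add-back and to 25.5 to 29.0 CPM in the Hmga2 add-back. Of these markers, 0 of 8 were called in the KO, 0 of 8 in either add-back and 0 of 6 in the full deletion. Without WT b of the full-deletion experiment 1 of the 6 was higher, beside 20.5% of all genes. The part of these markers in the results was not tested.

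Across all 15 samples, centred within each experiment, the levels of the H3K9 genes mostly moved together. The 45 pairs had a median Pearson r of 0.68, with the highest between Setdb1 and Ehmt1 (0.92) and the lowest between Suv39h1 and Cbx1 (-0.80). Suv39h1 correlated negatively with 8 of the other 9 genes and had an r of 0.09 with Ehmt2. With each batch centred as well, over 14 samples without WT c of the KO experiment, the median was 0.78, the highest r was between Ehmt1 and Cbx5 (0.96) and the lowest between Trim28 and Suv39h1 (-0.61), and that of Suv39h1 with Ehmt2 was -0.34. These values share libraries, batches and scaling, and are given as descriptions. No median over pairs of all genes stands beside them, so whether they are unusual is not shown.

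Outside the set, 13040 genes were tested in both experiments. Each r below is the highest of these 13040 over 15 samples. No such highest value for other genes stands beside it, so whether it is unusual is not shown. The gene most like Trim28 was Atp5h (r = 0.96), and the one most like Suv39h1 was Zfp36 (r = 0.91). For Atrx it was Pcm1 (0.98), for Setdb1 Atic (0.96) and for Suv39h2 Krr1 (0.96). Ehmt1 was most like Usp1 (0.98), Ehmt2 most like Mark2 (0.94), Cbx1 most like Terf1 (0.96), Cbx3 most like Rsl1d1 (0.98) and Cbx5 most like Gm6710 (0.97). With each batch centred as well, another gene took first place for all 10, such as Caprin1 for Trim28 (0.99) and Trim11 for Suv39h1 (0.91).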

How the data were processed

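RNA was measured in 15 mouse ESC samples by strand-specific 50 bp single-end sequencing after removal of ribosomal RNA. The values are the raw read counts per gene that the authors deposited in 2 tables of 21662 genes, 1 for each experiment; the authors trimmed the first 3 bases, aligned to mm9 with Bowtie through QuasR, placed reads with several matches at 1 of them at random, and counted on UCSC known genes. The labels' processing notes also name bcl2fastq 2.17. From the deposited counts, CPM were computed after TMM scaling within each experiment.

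The quasi-likelihood test of edgeR 4.0.16 (R 4.3.3) was run on genes whose counts averaged 10 or more, and its p-values were adjusted over all of them by Benjamini-Hochberg. The fit held all 9 samples of the KO experiment with batch as a term, all 6 of the full-deletion experiment with none, or all 15 for the difference between both effects. As in the study's methods, a call needed an adjusted p under 0.01 and a change of 2-fold or more, and an adjusted p under 0.05 with any fold was a second rule. The study's methods name limma; edgeR was used because it models counts, with limma-trend 3.58.1 and the Wald test of DESeq2 1.42.0 as alternatives, beside other scalings, filters of 50 or none, the batch term, and leaving out each sample. SE and 95% intervals come from the quasi-likelihood F value. The fitting script was tested on simulated data. Correlations used log2 CPM with a prior count of 2. Counting intervals cover counting error only, and the depth per sample is given above.

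Same-lettered samples of the KO experiment deviated together (r of deviations from group means 0.34 to 0.80), since a letter marks the library preparation day and flow cell; in the full-deletion experiment they did not (r -0.06 to 0.07). No 2 samples of a group agreed within sampling noise. All 10 genes are reported in every comparison. From each list, counts are given, with up to 3 genes of the smallest adjusted p under 0.05 by name; the genes and lists were chosen with earlier results of these data known. Gene positions and exon stretches of 47 bases were read from NCBIM37 with the GENCODE annotation, and promoter windows from RefSeq on GRCm38.p6; coordinates were not converted. Protein sequences were not used here.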

Additional observations from a re-analysis of the deposited data

How the results depend on the processing

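By the study's call, 0 of the 10 genes passed in each comparison under every alternative run. The count at an adjusted p under 0.05 with any fold in the full deletion was 1 (Trim28) as described, with no filter and with a mean count of at least 50, where 8.25, 7.62 and 9.26% of all genes passed. An alternative chosen after seeing the data, the same count under the other settings, gave 0 with DESeq2 size factors (7.85% of all genes), 0 with summed counts (5.07%), 0 with limma-trend (7.76%), 0 with a replicate block (3.02%), where the letters do not pair the samples, and 7 with DESeq2's Wald test (24.7%). Leaving out 1 sample gave 0 to 7, with 0.0228 to 42.5% of all genes, and the 7 came without WT b. Trim28 kept its sign in all of these, at -0.60 (adjusted p = 0.0734, edgeR) with the replicate block. Each group held 2 or 3 cultures, and each gene had at least 284 reads in every sample.

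Of the 50 log2 fold changes of the 10 genes, 27 kept their sign under every alternative run. The largest of the 23 that changed sign was 0.30 in size, and the cause was not tested. With summed counts, the full deletion gave 0.039 for Setdb1, 0.023 for Suv39h2, 0.010 for Ehmt2 and 0.15 for Cbx1, and the KO effect minus the deletion effect gave -0.15 for Setdb1, -0.20 for Suv39h2, -0.10 for Ehmt2, -0.090 for Cbx1, -0.15 for Cbx3 and -0.11 for Cbx5. Summed counts also turned Ehmt1 in the Hmga1 add-back (0.020) and Cbx3 in the Hmga2 add-back (0.0059). With no replicate block in the KO experiment, Ehmt2 in the KO was 0.0067, Cbx1 in the KO -0.10, Ehmt1 in the Hmga1 add-back 0.0018 and Suv39h2 in the Hmga2 add-back -0.0056. The last was -0.0029 with DESeq2 size factors, -0.0053 with no filter and -0.0028 with DESeq2's Wald test.

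Leaving out 1 sample turned the sign of 15 values. In the KO these were Trim28 (-0.30 to 0.26), Suv39h2 (-0.38 to 0.023), Ehmt2 (-0.19 to 0.0057), Cbx1 (-0.066 to 0.17) and Atrx (-0.18 to 0.30). In the Hmga1 add-back they were Suv39h2 (-0.015 to 0.19), Ehmt1 (-0.071 to 0.047), Ehmt2 (-0.21 to 0.0069) and Atrx (-0.42 to 0.049), and in the Hmga2 add-back Setdb1 (-0.14 to 0.050), Suv39h2 (-0.095 to 0.10), Cbx3 (-0.18 to 0.10) and Cbx5 (-0.050 to 0.11). For the KO effect minus the deletion effect they were Suv39h2 (-0.10 to 0.31) and Cbx3 (-0.0091 to 0.33).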
